A study of Solanum lycopersicum with 12 samples.

Results

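ACC oxidases and ACC synthases are the enzymes that make ethylene in plants, and they are described here in the roots of tomato plants that express AtHMA4 and of wild-type plants. Probe sets were taken by name: those whose gene symbol or synonym in the array's annotation is ACO or ACS followed by a digit. There were 13 such probe sets of 10101 tested, and they stand for 11 of the 802 genes that could be named: 3 ACC oxidase genes (ACO4, ACO5 and ACO6, the last with 3 probe sets) and 8 ACC synthase genes (ACS1A, ACS2, ACS3, ACS4, ACS5, ACS6, ACS7 and ACS8). The rule uses names and no measured value, but it was set with earlier results of these data known. Names in this family overlap. ACO4 here is the gene also called LE-ACO4; ACS6 and ACS8 both carry the synonym LE-ACS6; and ACS1A lies next to ACS1B in the genome.

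Ethylene is a gaseous hormone made from methionine. S-adenosylmethionine synthetases make S-adenosylmethionine, ACC synthases turn it into 1-aminocyclopropane-1-carboxylic acid (ACC), and ACC oxidases turn ACC into ethylene in a step that needs oxygen and iron. Each enzyme is encoded by a gene family whose members differ in the organ and the signal that raise them. In roots ethylene is known for its part in the response to flooding, in root hair growth and in the response to iron shortage.

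The 4 groups were the epidermis and cortex (EC) of transgenic line 4 (L4), the EC of the wild type (WT, var. Beta), the stele (S) of L4 and the S of WT, with 3 GeneChip Tomato Genome Arrays each. L4 carries AtHMA4, an Arabidopsis pump that exports Zn from cells, under the constitutive CaMV 35S promoter, and it is a single transgenic line, so that line and transgene cannot be told apart. All plants of both genotypes grew in medium with 5 μM Zn. By the sample labels they were exposed to it for 15 days and were 25 days old, whereas the methods of the study give 1 week. Each experiment pooled root fragments of 6 plants without the tips, and the sectors were cut out by laser microdissection. EC and S arrays that share a genotype and a number were treated as 1 root pool.

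No probe set is named for AtHMA4, so the genotype labels could not be checked on the transgene. L4 EC replicate 2 is an unusual array. Its log2 values had an SD of 3.04 (3.32 to 3.48 on the rest), and its spike-in controls had a mean of 13.9 (9.65 to 12.4 on the rest). Of 7 marker genes of the EC, 5 had a higher mean in the EC than in the S of L4 and 6 in WT, and limma called 0 of them. Several of these excesses were small. In WT they were 0.017 for FRO1, 0.056 for ext1 and 0.077 for EXPA8, against 0.37 for Dif54, 1.55 for PT2 and 1.73 for PT1. In L4 they were 0.088 for PT2, 0.48 for PT1, 0.54 for ext1, 0.76 for Dif54 and 3.26 for EXPA8. The L4 excess of ext1 came from EC replicate 2, at 3.94, where the other EC replicates had 2.40 and 2.51. Of 4 probe sets of S markers, 2 had a lower mean in the EC than in the S of L4 and 1 in WT, with 0 called. The other 3 had a higher mean in the EC of WT. As a set the markers thus did not bear out the sector labels, which were taken as given. The arrays carry no count of molecules, so the number of arrays limits the precision, and in tissue samples fewer cells that express a gene and less RNA per cell cannot be told apart. The deposited values are on a log2 scale, on which a difference of 1 is a doubling. Control probe sets at the 3' end of actin transcripts exceeded those at the 5' end by 7.63 to 10.45 on this scale. The excess was 7.52 to 10.97 for GAPDH and 1.31 to 3.82 for ubiquitin. Signal on every array thus came mostly from 3' ends, and what part this had in low values was not tested. A value under the lower quartile of all probe sets on its own array (2.37 to 2.81) is called low below. Levels are compared for a probe set across arrays and not between probe sets.

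The ACC oxidase gene ACO5 had far lower values in L4 than in WT in both root sectors, with mean differences on the log2 scale of -6.87 (EC) and -7.53 (S). ACO4, by contrast, had differences of -1.14 and -0.19, and its values overlapped between the genotypes in both sectors. The change of ACO5 was the lowest of all 10101 probe sets in the EC, in the S and over both sectors, but it did not pass the test after adjustment for the number of probe sets. None of the 13 probe sets did. Among the ACC synthases ACS2 was low on 11 and ACS5 on 12 of the 12 arrays, ACS8 on 5 and ACS3 on 2, and the other 4 genes on 0. ACS1A and ACS6 had lower means in L4 with ranges that overlapped WT in each sector.

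ACO5, described in tomato as a gene that is induced when oxygen is withheld, had log2 values of 1.95, 5.56 and 3.06 in the EC of L4, against 6.58, 12.02 and 12.55 in the EC of WT. Every L4 array was below every WT array, although L4 replicate 2 came within about 1 unit of WT replicate 1. In the S the log2 values were 2.97, 2.01 and 2.71 in L4, against 8.31, 12.25 and 9.73 in WT, so that the gap between the genotypes was wider there. Group means were 3.52 ± 1.85 in L4 EC and 10.39 ± 3.30 in WT EC, and 2.56 ± 0.49 in L4 S and 10.10 ± 1.99 in WT S (SD, n = 3 each). In order of level WT EC and WT S overlapped, L4 EC and L4 S overlapped, and the genotypes were apart.

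**Figure D1:**
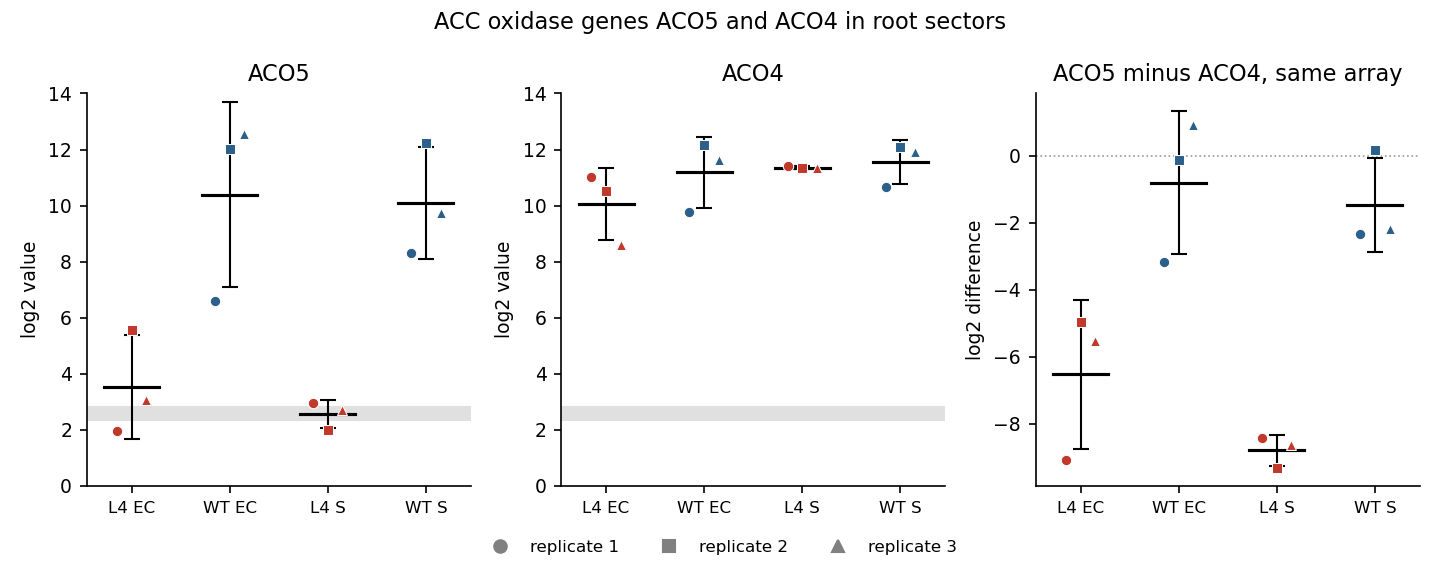
Log2 values of ACO5 and ACO4 on each array, and their difference on the same array, in the EC and S of L4 (red) and WT (blue); bars are the mean ± SD (n = 3), symbols are the replicate numbers and the grey band is the range of the arrays' lower quartiles. The 6 ACO5 values of L4 lie between 1.95 and 5.56 and those of WT between 6.58 and 12.55, whereas those of ACO4 overlap.

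The EC change of ACO5 had a standard error of 1.63 and a 95% interval of -10.5 to -3.18 on the log2 scale, and the interval of its S change was -11.2 to -3.85. The adjusted p-values from limma were 0.457 for the EC and 1.00 for the S, and the unadjusted ones 0.00215 and 0.00117. Over both sectors, with the mean of each root pool as the unit, the change was -7.20 (standard error 1.28, adjusted p = 0.319 from limma). The standard error of ACO5 was larger than that of 98.0% of the probe sets. WT replicate 1 had the lowest WT value in both sectors. Without that root pool the change over both sectors was -8.60 with an adjusted p of 0.0477 from limma, so this pool decides the call, and leaving out any other pool gave 0 calls among the 13 probe sets.

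The separation in the EC depended on the scale. L4 EC replicate 2, the array that stands apart, had ACO5 at the percentile 67.0 of its own probe sets, above the percentile 64.5 in WT EC replicate 1. After quantile normalization these arrays had log2 values of 6.78 in L4 and 6.38 in WT and the groups overlapped in the EC, while the change was -6.32. Without L4 EC replicate 2 the change was -7.88 (adjusted p = 0.311 from limma). In the S the groups stayed apart after quantile normalization. The size of the change is also uncertain, since 5 of the 6 L4 values of ACO5 were below 4, and 2 of these were low (1.95 and 2.01). With all values raised to the lower quartile of their array the EC change was -6.72 and the S change -7.40. This setting moves only the 2 low L4 values of ACO5, so it could not alter the size by much.

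Set against the whole array, ACO5 stood at the end of the distribution. All 3 L4 arrays lay below all 3 WT arrays in both sectors for 64 of 10101 probe sets (0.634%), among them ACO5. ACO5 alone, 0.00990%, was lower by at least 6 on the log2 scale in both. That cutoff lies just under the changes of ACO5, so this count only restates its rank. The difference of the ACO5 change between the sectors was 0.67 on the log2 scale (EC minus S, 95% interval -3.50 to 4.84, adjusted p = 0.983 from limma). This interval allows a sizeable difference in either direction.

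**Figure D2:**
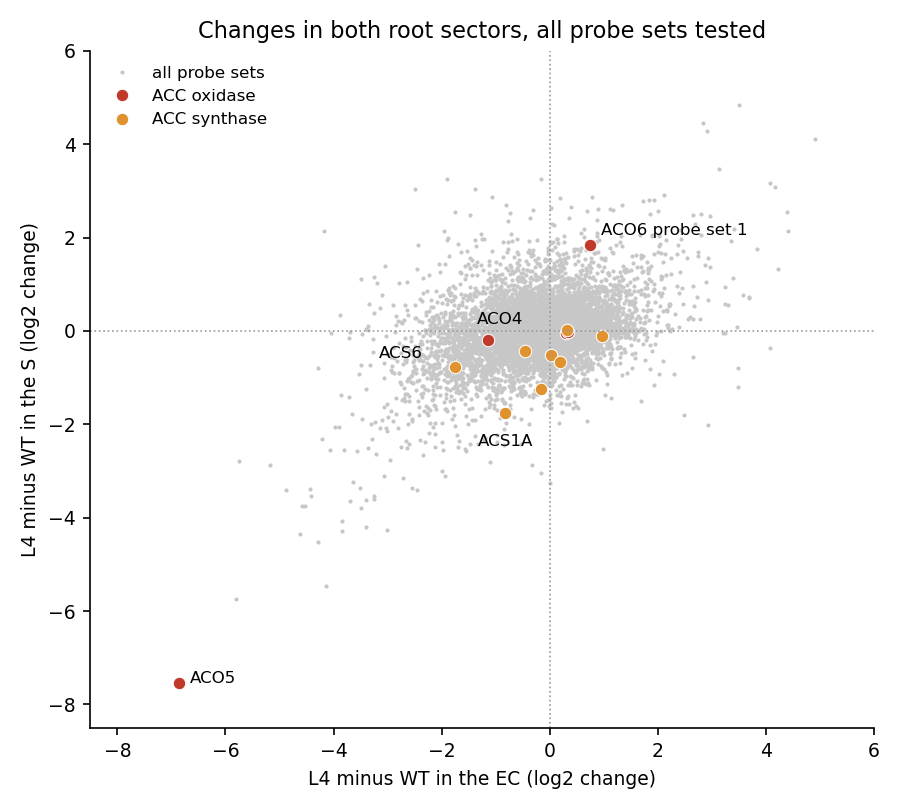
Change of each of the 10101 probe sets in L4 relative to WT (log2 scale) in the EC on the horizontal axis and in the S on the vertical axis; grey points are all probe sets, red points ACC oxidases and orange points ACC synthases. ACO5 lies alone at -6.87 and -7.53, and the other 12 probe sets lie within 2 log2 units of no change in both sectors.

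ACO4, an ACC oxidase gene known from ripening tomato fruit, had clear signal on every array, at the percentiles 77.9 to 95.6. It had log2 values of 11.03, 10.52 and 8.59 in the EC of L4, against 9.76, 12.16 and 11.63 in the EC of WT. The genotypes overlapped, the lowest value being that of L4 replicate 3. In the S the values were 11.40, 11.34 and 11.34 in L4, against 10.65, 12.08 and 11.92 in WT, so that the L4 arrays agreed closely and lay inside the WT range.

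For ACO4 the EC change of -1.14 had a standard error of 0.75 and a 95% interval of -2.83 to 0.55 (limma, adjusted p = 0.715). The S change of -0.19 had an interval of -1.88 to 1.50 (adjusted p = 1.00), and the change over both sectors was -0.67 (adjusted p = 0.916). Without L4 EC replicate 3 the EC change was -0.41 and without WT EC replicate 1 it was -1.85, and over both sectors it ran from -1.24 without WT replicate 1 to -0.29 without WT replicate 2. As for ACO5, replicate 1 held the lowest WT value in each sector.

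The difference ACO5 minus ACO4 on the same array, which sets the changes of these genes and not their levels against each other, was -9.08, -4.97 and -5.52 in the EC of L4, against -3.18, -0.13 and 0.92 in the EC of WT. It was -8.44, -9.33 and -8.62 in the S of L4, against -2.34, 0.16 and -2.19 in the S of WT. All L4 arrays were lower than all WT arrays in both sectors. The L4 minus WT difference of the means was -5.73 in the EC, -7.34 in the S and -6.53 over both sectors. An exact two-sided permutation test gave p = 0.10 in each of these 3 tests (0.10 after Benjamini-Hochberg adjustment over them), the smallest value that 3 against 3 allows.

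ACO6, a further ACC oxidase gene, is covered by 3 probe sets that did not behave alike. Probe set 1 had clear signal, with log2 values of 10.12, 7.79 and 7.09 in the EC of L4, against 8.23, 8.74 and 5.77 in the EC of WT, and the ranges overlapped. In the S the values were 8.90, 10.44 and 10.99 in L4, against 9.63, 6.43 and 8.74 in WT, again with overlap but with the highest values in L4. Probe sets 2 and 3 lay between 2.55 and 3.65 on all 12 arrays.

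For ACO6 probe set 1 the EC change was 0.75 and the S change 1.84 (95% interval -0.72 to 4.41), opposite in sign to ACO5. Over both sectors it was 1.30 (standard error 0.47, unadjusted p = 0.0375, adjusted p = 0.661 from limma), and the pool means of L4, 9.04 to 9.51, lay above those of WT, 7.26 to 8.93. The EC change turned to -0.16 without WT EC replicate 3, and the S change was 0.92 without WT S replicate 2. Probe set 2 was higher in L4 in the EC, with values of 3.22, 3.40 and 3.02 in L4, against 2.88, 2.87 and 2.97 in WT, but this small difference of 0.31 ended in overlap after quantile normalization.

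**Figure D3:**
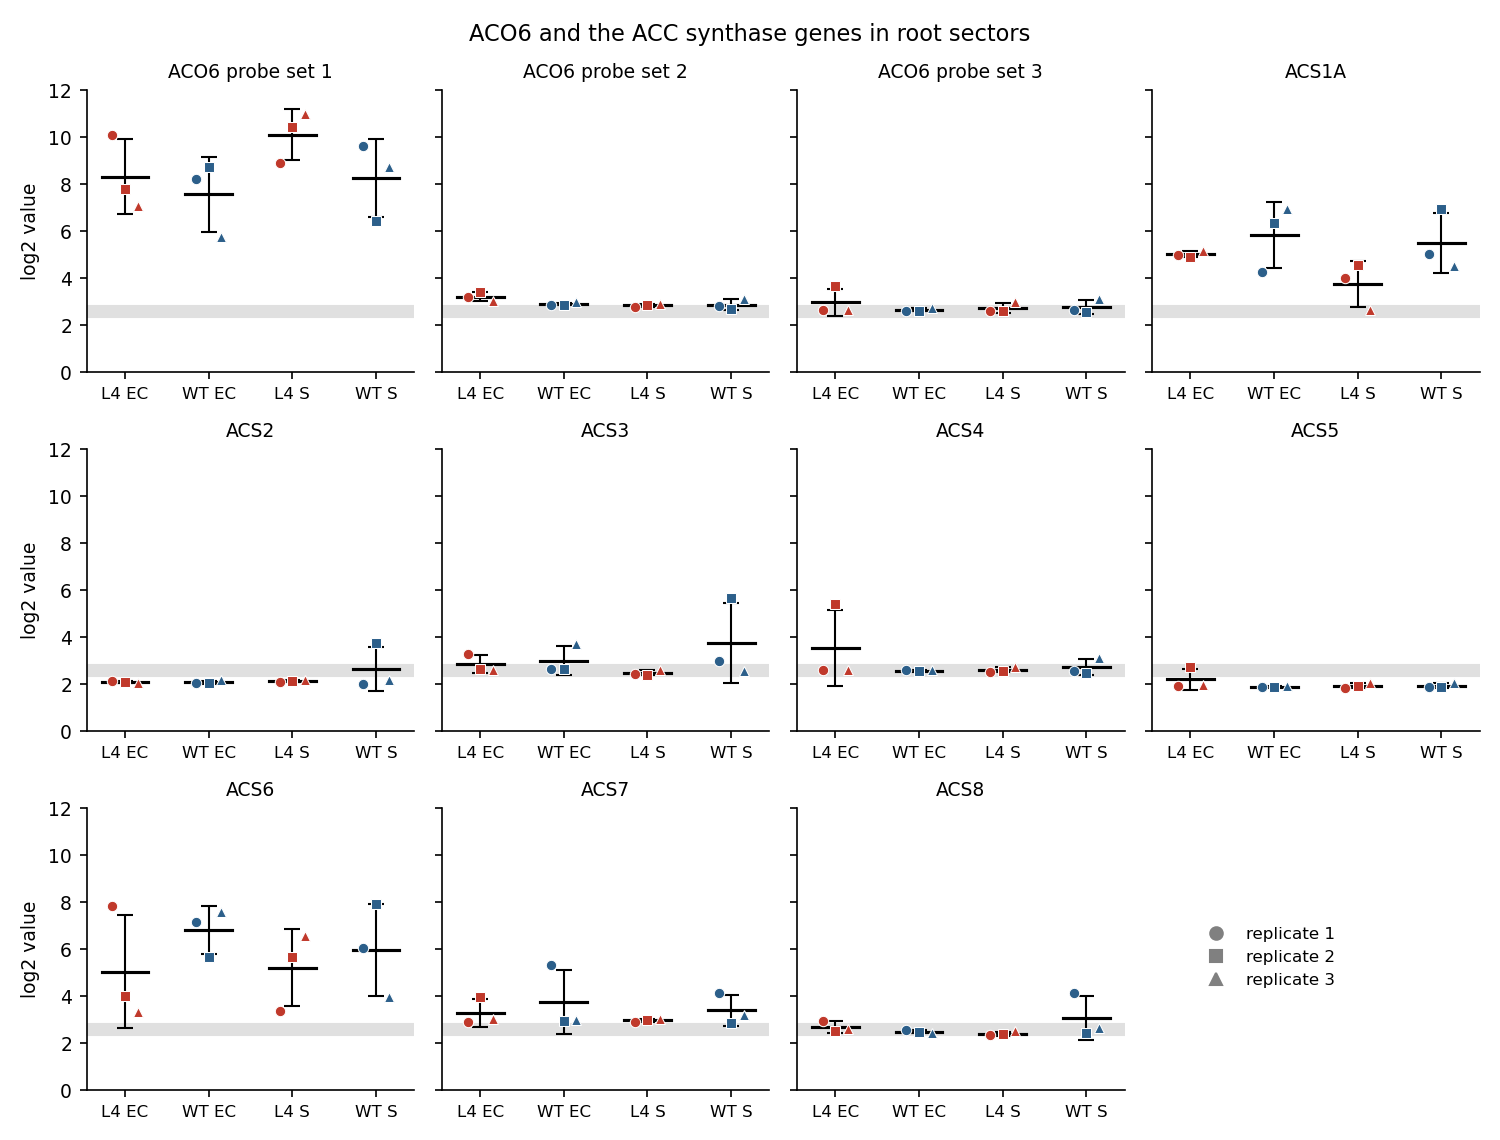
Log2 values of the 3 ACO6 probe sets and the 8 ACC synthase genes on each array, in the EC and S of L4 (red) and WT (blue); bars are the mean ± SD (n = 3), symbols are the replicate numbers and the grey band is the range of the arrays' lower quartiles. ACO6 probe set 1, ACS1A and ACS6 vary over several units within groups, and the other 8 lie near the band on most arrays.

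Of the ACC synthase genes, which encode the enzymes usually held to limit the rate of ethylene synthesis, ACS6 and ACS1A had signal on most arrays. Both belong to the synthases described in unripe tomato fruit. ACS6 had log2 values of 7.83, 4.01 and 3.33 in the EC of L4, against 7.16, 5.67 and 7.61 in the EC of WT. The highest EC value was in L4, so that the ranges overlapped although L4 also held the lowest values. In the S it had 3.39, 5.68 and 6.57 in L4, against 6.06, 7.91 and 3.98 in WT, with overlap too.

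In the EC the change of ACS6 was -1.76 (95% interval -4.90 to 1.38; limma, adjusted p = 0.715), and in the S it was -0.77. The EC minus S difference within pools was -3.24 to 4.44 in L4, against -2.24 to 3.63 in WT, so the sectors had no common order. The pool means lay closer together, at 4.84 to 5.61 in L4 against 5.79 to 6.79 in WT without overlap. Over both sectors the change was -1.26 (standard error 0.35, unadjusted p = 0.0139, adjusted p = 0.517 from limma). The EC change ran from -3.14 without L4 EC replicate 1 to -0.89 without L4 EC replicate 3, and the S change from -1.77 without WT S replicate 3 to 0.19 without WT S replicate 2.

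ACS1A had log2 values of 4.97, 4.91 and 5.16 in the EC of L4, against 4.26, 6.34 and 6.94 in the EC of WT. The L4 arrays agreed closely and WT replicate 1 lay below them. In the S the values were 4.02, 4.56 and 2.65 in L4, against 5.03, 6.97 and 4.53 in WT, with L4 replicate 2 just above the lowest WT array. The EC change of ACS1A was -0.83 and its S change -1.77 (standard error 0.82, 95% interval -3.61 to 0.079, adjusted p = 1.00 from limma), and -1.30 over both sectors (adjusted p = 0.779). The EC change of ACS1A ran from -1.62 without WT EC replicate 1 to -0.28 without WT EC replicate 3, and its S change was -1.04 without WT S replicate 2. After quantile normalization the S groups no longer overlapped.

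The remaining synthases had values under 4 on most arrays, and higher values came from 1 or 2 arrays. ACS5 was low on all 12 arrays, at 1.85 to 2.72, and ACS2, a ripening and wound gene of tomato, was low on 11 of 12, the exception being 3.75 in WT S replicate 2. That same array held the highest value of ACS3, 5.69, where the other 11 were at 2.41 to 3.72. ACS7, described with ACS3 as induced in flooded tomato roots, was highest in WT replicate 1, with an EC value of 5.33 and an S value of 4.14, against 2.89 to 3.97 in L4. The S array of that pool also held the highest ACS8 value, 4.15.

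L4 EC replicate 2, the array that stands apart, held the highest values of ACS4, a ripening gene, at 5.43, and of ACS5 at 2.72. On the other 11 arrays ACS4 was at 2.49 to 3.13. Without this array the EC change of ACS4 was 0.02, in place of 0.97, that of ACS5 0.06, in place of 0.31, and that of ACO6 probe set 3 0.005, in place of 0.34. The ACS5 values of L4 in the EC, 1.91, 2.72 and 1.99, all lay above those of WT, 1.88, 1.89 and 1.91, by small margins. What part the state of this array had in these values was not tested.

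Limma called 0 of the 13 probe sets in either sector, as it called 0.00% of all probe sets. Past an unadjusted p of 0.05 and 1.2-fold, 1 was lower and 0 higher in each sector, ACO5 both times, where 4.83% and 2.26% of all probe sets were lower and higher in the EC, with 1.32% and 1.18% for the S. The L4 and WT arrays did not overlap for 1 lower (ACO5) and 2 higher (ACO6 probe set 2 and ACS5) in the EC, where 6.31% and 5.98% of all probe sets did so. In the S this held for ACO5 alone, where 2.48% were lower and 1.82% higher. Negative changes numbered 6 of 13 in the EC and 11 of 13 in the S, against 39.3% and 52.0% of all probe sets, with medians of 0.02 and -0.43, against 0.08 and -0.005 over all probe sets.

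Over both sectors limma called 0 of the 13 and 0.00% of all probe sets, and 8 of 13 had a negative change, against 40.7% of all, with a median of -0.25, against 0.04 over all probe sets. ACO5 and ACS6 were lower and ACO6 probe set 1 was higher without overlap of the pools and at an unadjusted p under 0.05. Of all probe sets, 5.46% were lower and 4.05% higher without overlap, and 4.50% and 2.42% passed the unadjusted threshold.

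**Figure D4:**
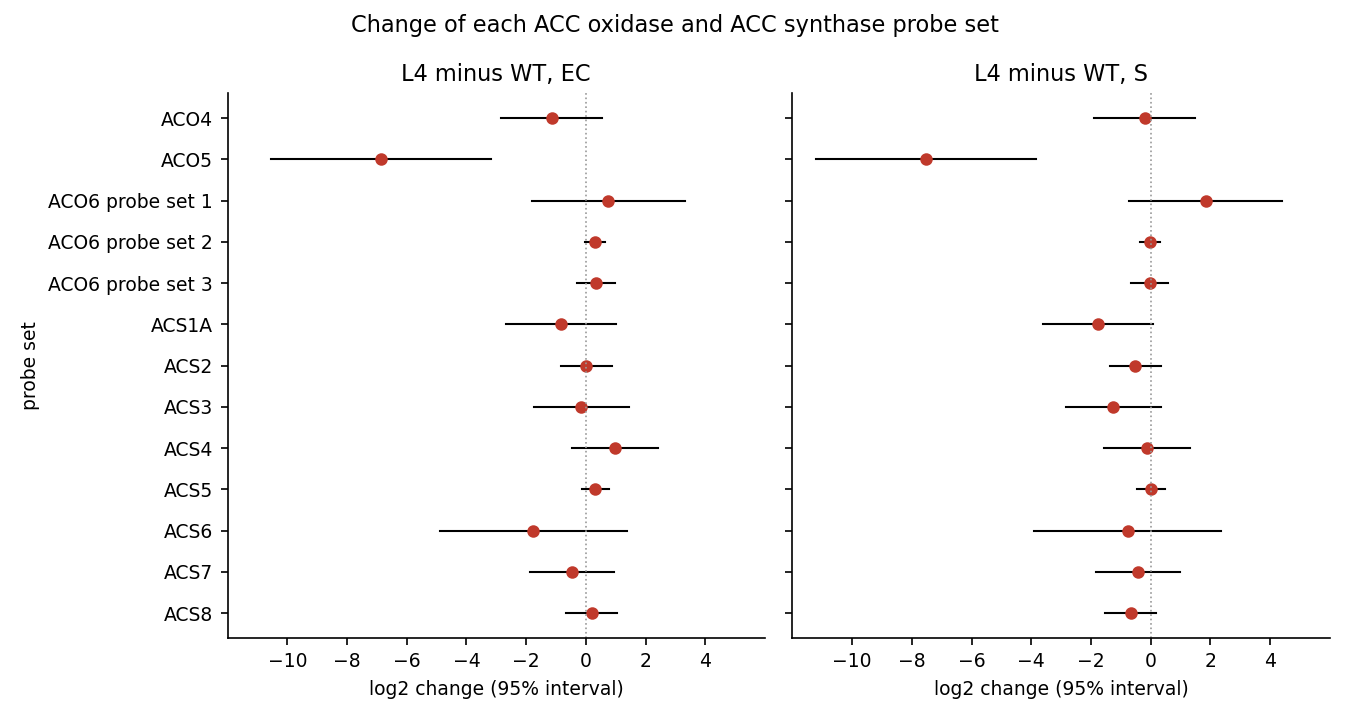
Change of each of the 13 probe sets in L4 relative to WT (log2 scale) in the EC (left) and the S (right); points are the estimates and lines the 95% intervals of the fit to all 12 arrays. The interval of ACO5 lies below 0 in both sectors, at -10.5 to -3.18 and -11.2 to -3.85, and those of the other 12 cross 0.

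Between the sectors of a root pool ACO4 had lower EC values in each L4 pool, which did not pass the test after adjustment. Its EC minus S difference was -0.38, -0.81 and -2.75 in the L4 pools, against -0.89, 0.07 and -0.28 in the WT pools. In L4 all EC arrays lay below all S arrays, and the mean difference was -1.31 (standard error 0.50, unadjusted p = 0.0430, adjusted p = 0.950 from limma), with -0.37 in WT (adjusted p = 1.00). Without L4 replicate 3 the L4 difference was -0.59. ACO4 was the only member past an unadjusted p of 0.05 and 1.2-fold in L4, in which 2.90% of all probe sets were lower in the EC and 1.17% higher. The difference between the genotypes in this respect was -0.94 (95% interval -2.72 to 0.83, adjusted p = 0.983), and -0.23 without L4 replicate 3, so it was not shown. Limma called 0 of the 13 between the sectors of L4 and 0 in WT, as it did 0.00% of all probe sets in each.

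ACO5 had EC minus S differences of -1.02, 3.55 and 0.35 in the L4 pools, against -1.73, -0.23 and 2.83 in the WT pools, with no common direction in either genotype. ACS1A was higher in the EC in every L4 pool, by 0.95, 0.35 and 2.51, against differences of -0.77, -0.63 and 2.41 in WT. Its mean difference in L4 was 1.27 (adjusted p = 0.950 from limma), and 0.65 without L4 replicate 3. Without overlap between the L4 sectors were ACO4, lower in the EC, and ACO6 probe set 2, ACS1A, ACS3 and ACS8, higher in the EC, where 2.86% of all probe sets were lower and 1.97% higher. The ACS3 and ACS8 values concerned lay between 2.33 and 3.29, and the highest of each gene, 3.29 and 2.97, were those of L4 EC replicate 1, at the percentiles 46.1 and 42.6 of that array. In WT 0 of the 13 were apart, against 2.90% of all probe sets lower in the EC and 3.32% higher. Among the 13, no difference between the sectors in the change of L4 relative to WT was shown, which does not make the changes equal. The smallest adjusted p from limma was 0.983, and 0 were at an unadjusted p under 0.05. Of all probe sets, 0.00% were called there, and 1.86% and 0.535% were past the unadjusted threshold in the negative and the positive direction.

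**Figure D5:**
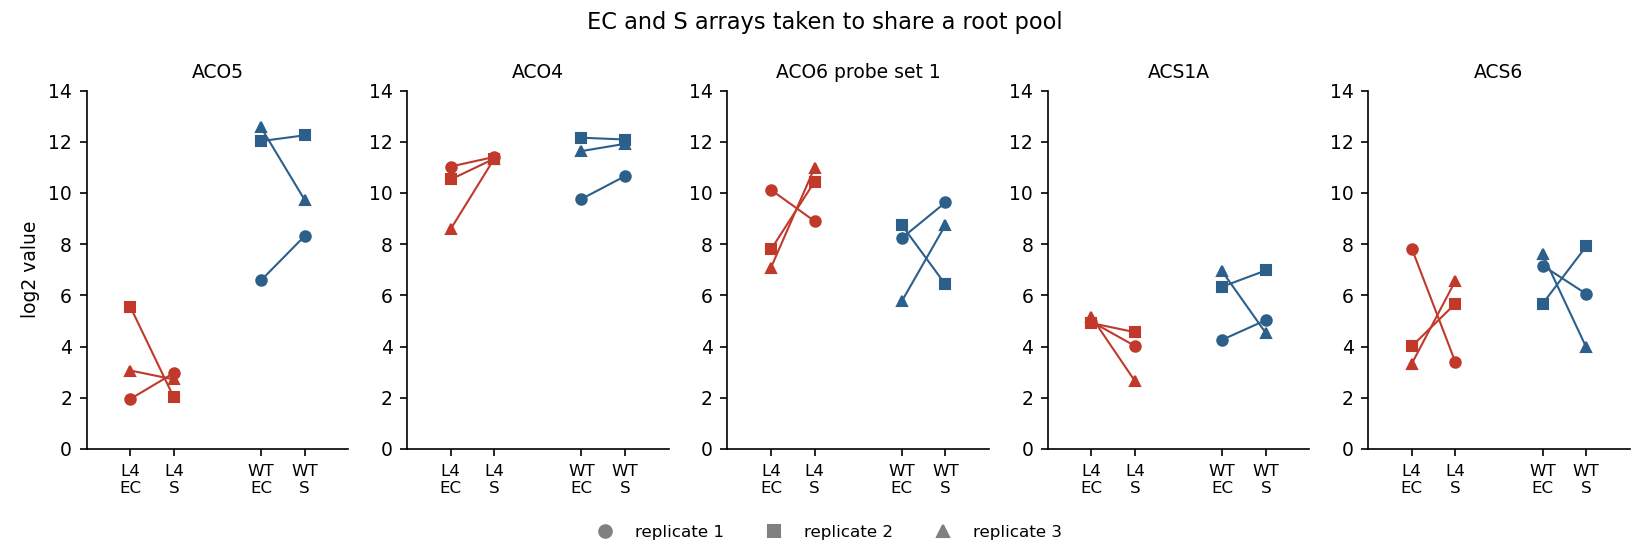
Log2 values in the EC and S arrays taken to share a root pool, joined by a line, for ACO5, ACO4, ACO6 probe set 1, ACS1A and ACS6 in L4 (red) and WT (blue), 3 pools each. ACO4 is lower in the EC in every L4 pool, by 0.38 to 2.75, and ACS6 and ACO6 probe set 1 run in both directions within a genotype.

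The named genes whose values over the 12 arrays were most like those of ACO5 were the alcohol dehydrogenase gene ADH2 (Pearson r = 0.96), the ethylene response factor gene ERF2 (r = 0.95), LOC544070 (r = 0.91), the Aux/IAA gene IAA2 (r = 0.89) and LOC778326 (r = 0.87). Those most like ACO4 were ER66, an ethylene-responsive gene for a calmodulin-binding transcription factor (r = 0.83), RanBP1 (r = 0.78), NITF (r = 0.75), the phosphate starvation gene TPSI1 (r = 0.74) and CIP2a (r = 0.74). The 12 arrays hold both genotypes, both sectors and paired sectors of a pool, so r over them describes the pattern and carries no test. Among the members ACS1A was the most like ACO5 (r = 0.75), ACO4 reached 0.48 and ACO6 probe set 1 ran the other way (r = -0.62).

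In the rest of the ethylene pathway limma called 0 genes in either sector. Upstream of ACC, the S-adenosylmethionine synthetase genes SAM1 and SAM3 had EC changes of -0.63 and 0.48 and S changes of -0.50 and -0.10. Of the 6 receptor genes, which bind ethylene and repress the response without it, 6 were negative in the EC (median -2.06) and 5 in the S (median -1.01), and past the unadjusted threshold were 3 in the EC and 1 in the S. The receptor gene ETR6 had log2 values of 3.69, 2.52 and 2.35 in the EC of L4, against 4.78, 6.14 and 5.78 in WT. Its L4 arrays lay below its WT arrays in both sectors, as did those of 0.634% of all probe sets. The EC median of the receptors rested in part on L4 EC replicate 2, the array that stands apart: it was -0.97 without that array and -1.17 with array weights, which give noisier arrays less influence in the fit. Of 9 genes of signalling below the receptors, 7 were negative in the EC (median -0.85) and 6 in the S (median -0.43). Here too 3 were lower past the unadjusted threshold in the EC and 1 in the S. Their EC median was -0.42 without L4 EC replicate 2 and -0.31 with array weights, and their S median was -0.02 without L4 S replicate 1. Of 20 probe sets of ethylene-responsive genes, 11 were negative in each sector (medians -0.24 and -0.13). Lower past the unadjusted threshold were 4 in the EC and 1 in the S. The medians turned to 0.02 in the EC without WT EC replicate 3 and to 0.04 in the S without L4 S replicate 2. They hide ERF2, which changed by -4.62 in the EC and -4.34 in the S without overlap of the genotypes. The smallest adjusted p of this list from limma, 0.139 in the EC and 0.346 in the S, was also the smallest over all probe sets.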

How the data were processed

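RNA of laser-captured root sectors was amplified and hybridised to 12 GeneChip Tomato Genome Arrays. The values deposited by the authors are on a log2 scale, 1 for each probe set and array. How probes were summarised and arrays normalized is not stated in the sources used here. All 12 value columns were used. Of 10209 probe sets 108 controls were left out. Symbols came from the platform annotation, updated through gene identifiers for 885 of the 909 probe sets that had 1, whereas 9192 had none. Groups were taken from the labels.

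Limma 3.58.1 in R 4.3.3 (lmFit, eBayes) was fitted to all 10101 probe sets without a filter. L4 was set against WT on 12 arrays (8 residual degrees of freedom) and on the means of 6 root pools (4), and EC against S and the interaction were fitted with root pools as blocks (4). The pools rest on the series' design text. Benjamini-Hochberg adjustment ran over all probe sets, and a call needs an adjusted p under 0.05 and 1.2-fold. The study used the same thresholds and reported called genes in both sectors, whereas the fit here called 0. The test behind its calls is not stated in the sources used here. By RT-qPCR the study reported both ACO4 and ACO5 as lower in L4 in both sectors. The replicates are 3 experiments per genotype.

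Named were all members, the 5 named genes most correlated with ACO4 and with ACO5, and pathway lists by counts, with CTR1 in both the signalling and the responsive list. Members and lists were chosen with earlier results of these data known. The fits were run on simulated independent normal values, only to check that mean estimates lay near the changes put in. The simulation held no pool effects and no unusual array, so it does not bear on error rates in these data. The alternatives were a replicate block, array weights, quantile normalization, centring on medians, a filter at a mean of 4 on the log2 scale, a robust trended eBayes, only the arrays compared, other thresholds, each replicate left out and values raised to the lower quartile, the last chosen after seeing the data except for ACO5 minus ACO4. Figures were drawn in matplotlib 3.10.9. Sequences were not used here.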

Additional observations from a re-analysis of the deposited data

How the results depend on the processing

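The 13 probe sets and 6 comparisons had 706 fits under alternatives other than a left-out replicate. Of these, 693 kept the direction and the side of the threshold and 13 changed sign, with 0 past the threshold. Many could not change a sign. A change of block, the filter, the robust trended eBayes, other thresholds and only the arrays compared leave the estimate as it is. The changes of sign among values given in the text were small or between sectors. In the EC quantile normalization gave -0.037 and median centring -0.010 for ACS2. In the S median centring gave 0.00045 for ACO6 probe set 3, array weights 0.053 for ACO6 probe set 2, and raised values -0.012 for ACS5. For the EC against the S array weights gave -0.17 for ACO5 in L4, and -0.70 for ACO5 and -0.40 for ACS1A in WT. The adjusted p of ACO5 from limma was 0.0863 to 0.711 in the EC, 0.115 to 1.00 in the S and 0.131 to 0.438 over both sectors.

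Of 858 fits with a replicate left out 83 changed sign, and 1, ACO5 over both sectors without WT replicate 1, passed the threshold. Leaving out an array of a group that is not compared keeps the estimate as it is, so those fits could not change a sign. Values given in the text that changed sign ranged, in the EC, from -0.0070 to 0.062 for ACS2, -0.87 to 0.33 for ACS7, -0.16 to 1.37 for ACO6 probe set 1 and -0.37 to 0.20 for ACS3. In the S they ranged from -0.64 to 0.073 for ACO4, -0.12 to 0.086 and -0.16 to 0.14 for ACO6 probe sets 2 and 3, -0.83 to 0.032 for ACS2, -0.24 to 0.082 for ACS4, -0.049 to 0.073 for ACS5 and -1.77 to 0.19 for ACS6. Between the sectors ACO5 ranged from -0.33 to 1.95 in L4 and -0.98 to 1.30 in WT, ACS1A from -0.70 to 0.89 in WT, and the difference of the ACO5 changes from -0.62 to 1.94. ACO5 minus ACO4 was at -6.92 to -4.45 in the EC, -7.78 to -6.53 in the S and -7.35 to -5.96 over both sectors.

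Among all probe sets, where 0 were called, array weights called 50 in the EC, 3 in the S and 1 over both sectors, and a fit of only the 6 EC arrays called 1. Over both sectors median centring called 2, a mean log2 value of at least 4 called 3, an adjusted p under 0.1 called 2 and raised values called 1. The cause was not tested. With a replicate left out 0 to 10 were called in the EC, 0 to 3 in the S and 0 to 9 over both sectors, of which 0 to 1 over both sectors and 0 elsewhere were members.

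Replicate numbers across genotypes share only a number: same-numbered arrays of a sector had correlations of their deviations of -0.10 to 0.38, with 3 of 6 over 0.1. The replicate block left 0 calls in the EC, 0 in the S and 0 over both sectors. Arrays taken to share a pool had 0.63, 0.17 and 0.06 in WT and 0.03, -0.16 and -0.27 in L4, with 2 of 6 over 0.1. Arrays that share a number but neither genotype nor sector had -0.14 to 0.47. A shared pool was thus not visible in L4, where the EC minus S differences within pools rest on the series' design text. Without the pool as a block 0 were called between the sectors. No detection values were used, so low values cannot be told from background.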
